A study of Homo sapiens with 12 samples.

Results

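SOX genes encode transcription factors that bind DNA through an HMG box, a domain that inserts into the minor groove and bends the helix. The genes followed here are the SOX1, SOX2, SOX3, SOX4, SOX5, SOX6, SOX8, SOX9, SOX11 and SOX12 genes. They were chosen by name, with earlier results of these data known. Of these 10 genes, 7 have a named transcript among the 19972 transcripts of the deposited count table: SOX1, SOX2, SOX4, SOX5, SOX9, SOX11 and SOX12. The other 3 genes, SOX3, SOX6 and SOX8, are not analysed here. All 7 transcripts passed the filter on low counts, and each is 1 Ensembl transcript per gene.

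The cells were human induced neurons at day 14 in vitro, derived from H1, an established human embryonic stem cell line, by overexpression of Ngn2, a proneural transcription factor. The genotypes compared were wt/wt, wild type at the LLPH locus, and Nterm/Nterm, homozygous for an LLPH allele named Nterm in the labels. The sources used here give neither the nature of that allele nor the number of clones behind each genotype. Both genotypes received doxycycline (2 µg/mL) and, against dividing cells, cytosine arabinoside (4 µM) from day 5, with a partial change of medium on day 10, and no glia were added. Cells were harvested in cycloheximide at 100 µg/mL. Cytoplasmic lysates gave RNA-seq libraries of polyA RNA and Ribo-seq libraries of ribosome footprints, the mRNA fragments that ribosomes protect from nuclease, with 3 libraries per genotype and assay.

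Library totals were 18944427 to 25089790 counts for RNA and 12652833 to 16356419 counts for footprints. Groups follow the sample titles and the names of the count columns, which give the same genotypes. The genotype tag contradicts both for all 6 footprint samples. LLPH itself had 88 to 135 footprint counts per wt/wt library and 22 to 39 per Nterm/Nterm library, a log2 change of -1.60 (SE 0.19, edgeR quasi-likelihood adjusted p = 1.77e-05), while its RNA changed by 0.14 (SE 0.06, adjusted p = 0.135). The 13 neuronal markers listed for this work all had a tested transcript, and their summed RNA level was 13615 to 14590 CPM in wt/wt libraries. CPM stands for counts per 1000000 counts of the library, after scaling of the library total by TMM. Nothing in the labels says that libraries of a group came from separate cultures, so p-values measure the spread between these libraries, which may be technical.

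SOX proteins fall into subgroups with related sequence and related roles in the nervous system. SOXB1 factors (SOX1, SOX2 and SOX3) keep neural progenitors undifferentiated and hold back proneural factors. SOXC factors (SOX4, SOX11 and SOX12) act later, on pan-neuronal genes of young neurons, SOXD factors (SOX5, SOX6 and SOX13) lack an activation domain of their own and bind as dimers, and SOXE factors (SOX8, SOX9 and SOX10) act in glia, neural crest and cartilage.

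In Nterm/Nterm neurons, RNA of SOX1, SOX11 and SOX12 rose and RNA of SOX2 and SOX9 fell, so that 3 of 7 members were called higher, 2 lower and 2, SOX4 and SOX5, did not pass the test (edgeR quasi-likelihood test, Benjamini-Hochberg adjusted p under 0.05 over all transcripts tested). The changes ran from a 1.79-fold rise of SOX1 to a fall of SOX9 to 0.722 of its wt/wt level. Over all 14659 transcripts tested for RNA, 17.9% were called, 7.25% as higher and 10.6% as lower. That set includes transcripts without a name, while the members come from named transcripts, none with under 1016 total counts. The members and this background are therefore not matched for depth. The median log2 change was 0.14 over the 7 members and -0.0004 over all transcripts. In bulk lysates, fewer cells of a type and less RNA per cell cannot be told apart.

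**Figure D1:**
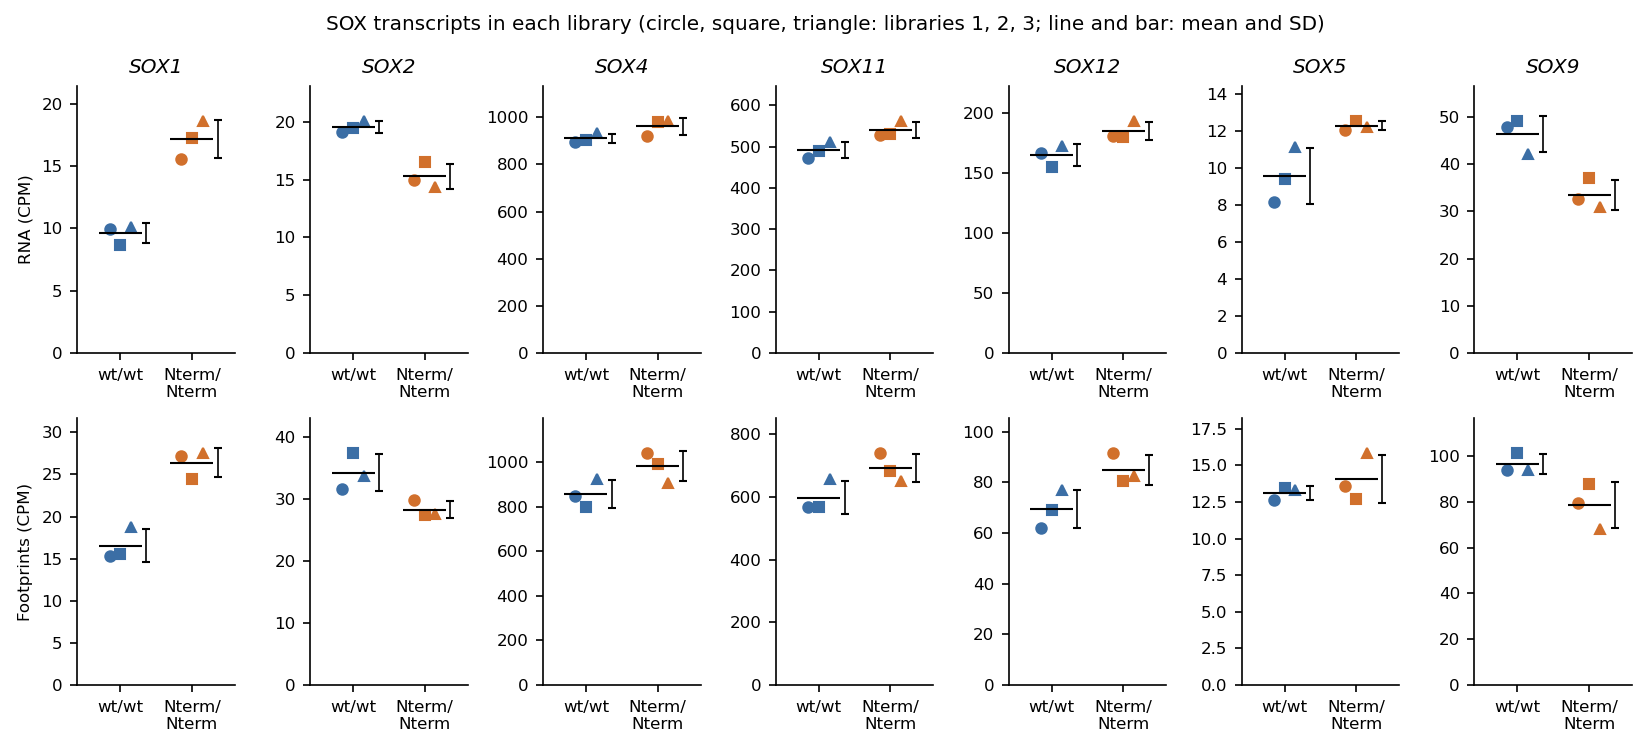
Level of each SOX transcript in CPM, on linear axes that start at 0, in the 3 wt/wt (blue) and 3 Nterm/Nterm (orange) libraries, for RNA (top) and footprints (bottom). Points are libraries, the line is the mean and the bar the SD. The genotypes are apart for 6 of 7 members in RNA and for 4 of 7 in footprints. Over all transcripts tested, a background not matched for depth, they are apart for 36.2% in RNA and 30.7% in footprints.

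SOX1, a SOXB1 factor and an early marker of the neural lineage, rose most. Its RNA stood at 9.97, 8.69 and 10.1 CPM in the wt/wt libraries and at 15.6, 17.3 and 18.6 CPM in the Nterm/Nterm libraries, from 190 to 254 and from 309 to 399 counts. The lowest Nterm/Nterm library lay above the highest wt/wt library, and the means were 9.60 ± 0.792 and 17.2 ± 1.52 CPM (SD, n = 3 each). The log2 change was 0.84 (SE 0.10, 95% interval 0.62 to 1.05, adjusted p = 0.000446), and 0.648% of transcripts tested had a larger increase. SOX1 footprints were at 15.3, 15.6 and 18.8 CPM in wt/wt and at 27.1, 24.4 and 27.6 CPM in Nterm/Nterm libraries, again without overlap. Their log2 change was 0.67 (SE 0.10, adjusted p = 0.000208).

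SOX2, the SOXB1 factor of pluripotent cells and neural stem cells, went the other way. Its RNA was at 19.1, 19.4 and 20.1 CPM in wt/wt and at 14.9, 16.5 and 14.4 CPM in Nterm/Nterm libraries. Every Nterm/Nterm library was below every wt/wt library, and the log2 change was -0.36 (SE 0.08, 95% interval -0.53 to -0.19, adjusted p = 0.0103). SOX2 footprints were at 31.5, 37.4 and 33.7 CPM in wt/wt and at 29.9, 27.4 and 27.6 CPM in Nterm/Nterm libraries. The genotypes did not overlap, but the margin was narrow. The footprint change of -0.28 (SE 0.09, adjusted p = 0.0379) was called in 1 of 6 fits that each left out a library, the fit without wt/wt footprint library 1, with adjusted p up to 0.222 over the 6 fits, and DESeq2 gave an adjusted p of 0.0646. SOX2 lies within an intron of the noncoding gene SOX2-OT, which is transcribed in the same direction, so unspliced SOX2-OT RNA over this interval would not be told apart from SOX2.

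Since SOX1 and SOX2 share much of their role, their relative RNA was compared within each library. The ratio of SOX1 counts to SOX2 counts in RNA was 0.522, 0.447 and 0.505 for the wt/wt libraries, while it was 1.04, 1.05 and 1.30 for the Nterm/Nterm libraries. It was 2.3 times as high on average in Nterm/Nterm, with no overlap. In footprints the wt/wt libraries had ratios of 0.484, 0.418 and 0.557, and the Nterm/Nterm libraries 0.909, 0.892 and 1.00. For each ratio the two-sided exact permutation test gave p = 0.1, the smallest that 3 against 3 libraries allow, or 0.3 after Benjamini-Hochberg adjustment over the 6 ratios computed. Since SOX1 rose and SOX2 fell without overlap in both assays, the lack of overlap in the ratios and this p follow from those changes. They are no separate evidence. The ratio of counts depends on the lengths of both transcripts, so only its difference between genotypes is read here.

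The promoters of SOX1, SOX2 and SOX12, members whose RNA was called and that have an entry in the RefSeq promoter table, are printed because Ngn2, the factor that drives these cultures, binds E-boxes (letters CANNTG, which read as the same motif on both strands). Each sequence is the 250 bases before the gene's start, 5′ to 3′ on the gene's strand, in build GRCh38.p14, with E-boxes in capitals. SOX1 is at chr13:112066899-112067148 on the plus strand, SOX2 at chr3:181711675-181711924 on the plus strand and SOX12 at chr20:325302-325551 on the plus strand.
SOX1: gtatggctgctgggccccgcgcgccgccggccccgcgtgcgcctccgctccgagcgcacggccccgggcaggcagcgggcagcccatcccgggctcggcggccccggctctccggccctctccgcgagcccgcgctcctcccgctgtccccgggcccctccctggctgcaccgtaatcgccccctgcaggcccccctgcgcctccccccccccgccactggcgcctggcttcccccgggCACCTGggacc
SOX2: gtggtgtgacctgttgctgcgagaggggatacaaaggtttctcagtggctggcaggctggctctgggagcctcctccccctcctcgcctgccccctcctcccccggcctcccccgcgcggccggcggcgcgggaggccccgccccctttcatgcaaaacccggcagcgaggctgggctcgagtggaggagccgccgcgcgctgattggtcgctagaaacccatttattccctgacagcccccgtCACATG
SOX12: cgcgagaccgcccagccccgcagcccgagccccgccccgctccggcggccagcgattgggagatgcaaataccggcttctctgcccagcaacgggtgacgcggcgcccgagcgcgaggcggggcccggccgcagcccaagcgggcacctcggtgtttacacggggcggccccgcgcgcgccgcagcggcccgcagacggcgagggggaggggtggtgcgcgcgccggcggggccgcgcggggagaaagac
The SOX1 window holds 1 E-box, CACCTG, whose first base lies 11 bases before the start. The SOX2 window also holds 1, CACATG, at 6 bases before the start, while no E-box letters are in the SOX12 window. Of 35116 RefSeq promoters of this length, 61.8% hold an E-box. The SOX2 window has the letters ACAAAG, a core that SOX proteins can bind, at 220 bases before the start, on a search of both strands that found them in 13.7% of promoters. Its CCAAT box lies 47 bases before the start, a motif in 32.0% of promoters, and overlaps none of the others. GC content is 82% in the SOX1 window, 68.8% in SOX2 and 79.2% in SOX12, against a median of 58% over all promoters. These matches describe letters, not binding, and the promoters were not assayed here.

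The SOXC genes had the highest RNA counts among the SOX transcripts, and their RNA changes were small. SOX11, which promotes neurite growth and survival of young neurons, had RNA at 472, 490.1 and 511 CPM in wt/wt and at 528.5, 531 and 562 CPM in Nterm/Nterm libraries. The genotypes did not overlap, and SOX11 rose by 0.14 on the log2 scale (SE 0.04, 95% interval 0.05 to 0.23, adjusted p = 0.0436). SOX12, the third SOXC gene, had RNA at 167, 155 and 173 CPM in wt/wt and at 181.5, 180.3 and 194 CPM in Nterm/Nterm libraries, and rose by 0.17 (SE 0.05, 95% interval 0.06 to 0.27, adjusted p = 0.0401). Both calls lie close to the threshold. Each was lost in 4 of 6 fits that left out a library (wt/wt RNA library 1 or 2, or Nterm/Nterm RNA library 1 or 3), with adjusted p up to 0.212 for SOX11 and 0.196 for SOX12.

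SOX4, an activator of early neuronal genes, had RNA at 897, 902.5 and 934 CPM in wt/wt and at 919, 981 and 985 CPM in Nterm/Nterm libraries. The lowest Nterm/Nterm library lay below the highest wt/wt library. Its log2 change was 0.08 (SE 0.04, 95% interval -0.01 to 0.17, adjusted p = 0.202), which does not show that its level was equal. With a replicate block, an edgeR fit that also includes the library number, SOX4 RNA was called higher (adjusted p = 0.0159). The numbers are not known to mark pairs. The ratio of SOX11 to SOX4 RNA counts averaged 0.539 in wt/wt and 0.562 in Nterm/Nterm libraries (two-sided exact permutation p = 0.3, or 0.45 after adjustment over the 6 ratios).

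SOXC footprints had positive log2 changes for all 3 genes, and 1 passed the test. SOX12 footprints were at 62.0, 69.2 and 76.9 CPM in wt/wt and at 91.7, 80.7 and 82.7 CPM in Nterm/Nterm libraries, without overlap. They rose by 0.29 (SE 0.08, adjusted p = 0.0195), a call that was lost without wt/wt footprint library 1 or 2 or Nterm/Nterm footprint library 1 (adjusted p up to 0.129). SOX11 footprints were at 568.4, 568.2 and 658 CPM in wt/wt and at 741, 684 and 652 CPM in Nterm/Nterm libraries. These groups overlapped through wt/wt library 3, and the change of 0.21 (SE 0.08, adjusted p = 0.0972) was called only without that library (0.0236) or with no filter on low counts (0.0332). SOX4 footprints were at 849.9, 801 and 925 CPM in wt/wt and at 1043, 994 and 909 CPM in Nterm/Nterm libraries, and overlapped, with a change of 0.19 (SE 0.08, adjusted p = 0.14).

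SOX5, the SOXD factor that guides the identity and migration of deep-layer cortical neurons, was among the less counted members. Its RNA was at 8.16, 9.42 and 11.1 CPM in wt/wt and at 12.1, 12.6 and 12.2 CPM in Nterm/Nterm libraries, from 203 to 279 and from 239 to 262 counts. The genotypes did not overlap, and the wt/wt libraries were the more spread (SD 1.49 CPM against 0.246, n = 3 each). The log2 change was 0.36 (SE 0.12, 95% interval 0.11 to 0.61), with an adjusted p of 0.0507, just outside the threshold. Over the 6 fits that left out a library, the change was 0.25 to 0.48 and the adjusted p 0.0141, without wt/wt RNA library 3, to 0.209, and it was called in that 1 fit. The adjusted p was 0.041 with no filter on low counts, 0.0488 with limma-voom, 0.0496 with RLE size factors, 0.0507 with library totals alone and 0.0578 with DESeq2. It was lower, 0.00973, with the replicate block. SOX5 footprints were at 12.6, 13.4 and 13.3 CPM in wt/wt and at 13.6, 12.7 and 15.9 CPM in Nterm/Nterm libraries. They overlapped, with a change of 0.10 (SE 0.12, 95% interval -0.14 to 0.34, adjusted p = 0.608).

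SOX9, the SOXE factor of radial glia, astrocytes, neural crest and cartilage, had the deepest fall of the members. Its RNA was at 47.9, 49.2 and 42.2 CPM in wt/wt and at 32.6, 37.1 and 31.0 CPM in Nterm/Nterm libraries, with 1056 to 1192 and 645 to 706 counts. Every Nterm/Nterm library was below every wt/wt library. The log2 change was -0.47 (SE 0.08, 95% interval -0.64 to -0.30, adjusted p = 0.00257), and 7.11% of transcripts tested fell further. SOX9 footprints were at 93.9, 101.4 and 93.9 CPM in wt/wt and at 79.6, 87.9 and 68.3 CPM in Nterm/Nterm libraries, again apart. Their change of -0.30 (SE 0.08, adjusted p = 0.0186) was lost without wt/wt footprint library 2 or Nterm/Nterm footprint library 3 (adjusted p up to 0.126).

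Counted over the family, footprints rose for SOX1 and SOX12 and fell for SOX2 and SOX9, which is 2 of 7 members higher, 2 lower and 3 not called. The background was 13.3% of transcripts called for footprints, 4.36% as higher and 8.91% as lower. RNA levels of the genotypes did not overlap for 6 of 7 members, against 36.2% of all transcripts tested, and footprint levels for 4 of 7, against 30.7%. These backgrounds also include transcripts without a name and are not matched to the members for depth. Over all transcripts, called changes had a median size of 0.32 for RNA and 0.41 for footprints (absolute log2). In RNA the SOX1, SOX2 and SOX9 changes were larger than this median and the SOX11 and SOX12 changes smaller. In footprints the SOX1 change was larger and the SOX2, SOX12 and SOX9 changes were smaller.

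**Figure D2:**
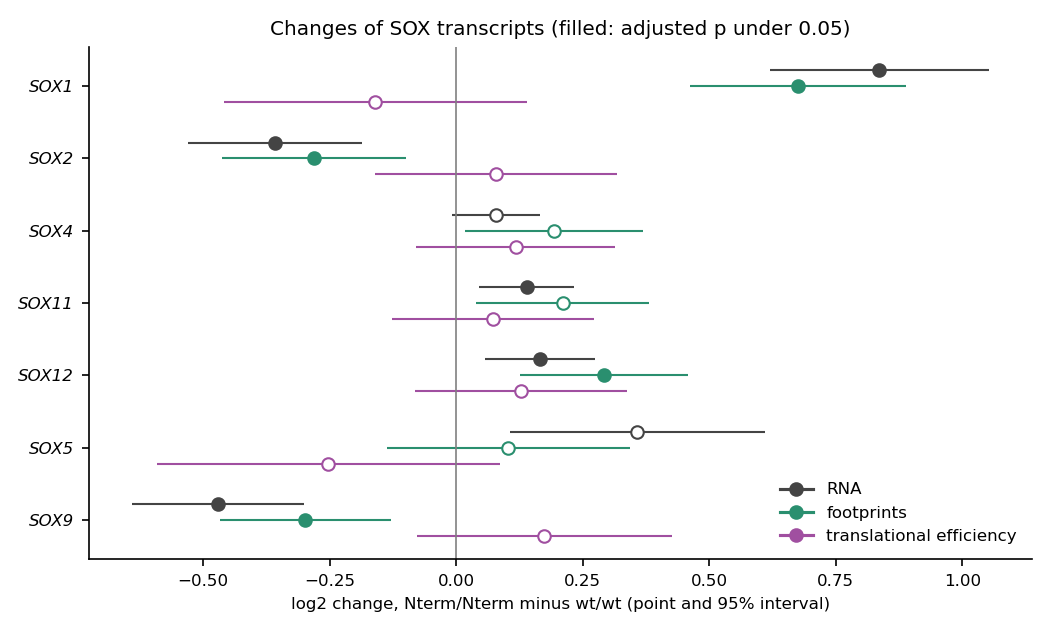
Log2 change of Nterm/Nterm against wt/wt (x axis) for each SOX gene, with 95% intervals, in RNA, footprints and translational efficiency; filled points passed the adjusted p threshold of 0.05. RNA and footprint changes have the same sign for every member, and no efficiency change is filled.

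Translational efficiency, the footprints of a transcript relative to its RNA, changed for none of the 7 members (edgeR interaction of assay and genotype over 12 libraries). None had an unadjusted p under 0.05, 0 of 7, and limma-voom also called 0 of 7. DESeq2 gave an adjusted p for SOX4 and SOX11 alone, 0.685 and 0.836, and none for the other members. Among all transcripts, 0.0203% were called. The log2 changes were -0.16 for SOX1 (95% interval -0.46 to 0.14), 0.08 for SOX2 (-0.16 to 0.32) and 0.17 for SOX9 (-0.08 to 0.43). For the SOXC genes they were 0.12 for SOX4 (-0.08 to 0.31), 0.07 for SOX11 (-0.13 to 0.27) and 0.13 for SOX12 (-0.08 to 0.34). SOX5 had the widest interval, -0.59 to 0.09 around -0.25. These intervals bound the efficiency changes that the libraries leave possible and do not show equality.

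The ratio of footprints to RNA differed more among the members than between genotypes. If RNA was counted over untranslated parts as well, this ratio also depends on the coding share of each transcript, which was not tested. Its order among genes is therefore not read as translation alone. The ratio of footprint CPM to RNA CPM was taken between libraries of the same number, although the main fits did not treat these as pairs. Its ranges depend on this matching. The ratio was highest for SOX9, at 1.96 to 2.23 in wt/wt. SOX2 (mean 1.75), SOX1 (1.73), SOX5 (1.39) and SOX11 (1.22) followed, each overlapping its neighbour within this run of 4. SOX4 came next at 0.887 to 0.990, below every SOX11 value, and SOX12 was last at 0.371 to 0.446, below every SOX4 value. In Nterm/Nterm libraries SOX9 had a mean of 2.34. By their means, the SOXC genes kept the order SOX11, SOX4 and SOX12 in Nterm/Nterm as well (1.28, 1.02 and 0.460).

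In the authors' deposited table, SOX9 had an efficiency of 2.01 in wt/wt and 2.24 in Nterm/Nterm, and 88.0% of that table's 10932 transcripts lay below its wt/wt value. The authors' deposited table put SOX12 at 0.406 and 0.440, with 10.0% of transcripts below. The median of the authors' deposited table in wt/wt was 1.11. Its ratio of Nterm/Nterm to wt/wt ran from 0.818 for SOX5 to 1.11 for SOX9 over the 7 members in the authors' deposited table. The lowest of their unadjusted p-values there was 0.0829, for SOX9.

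**Figure D3:**
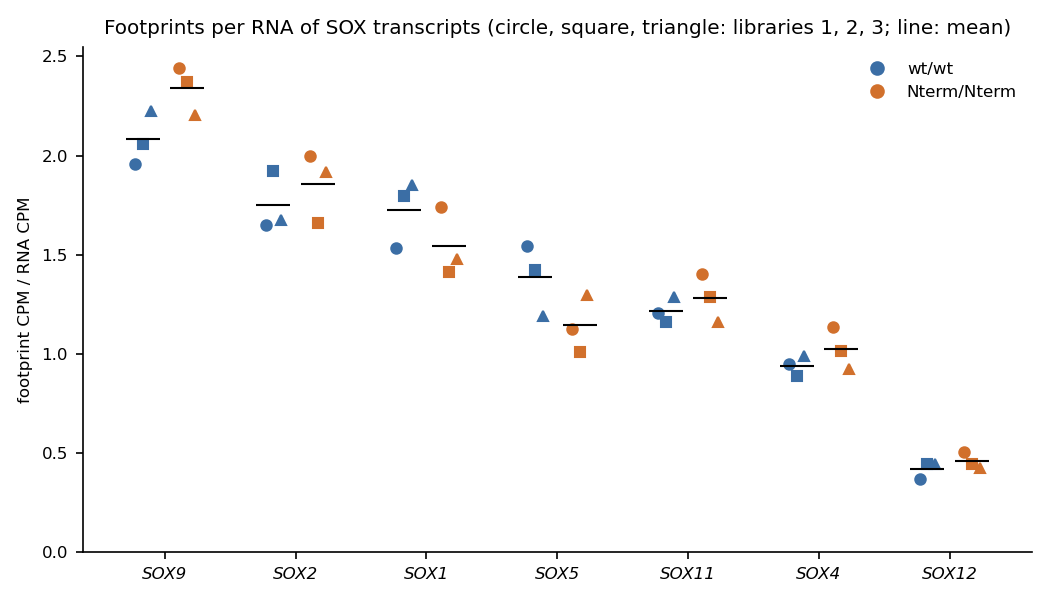
Footprint CPM divided by RNA CPM (y axis, linear, from 0) for each SOX gene in the wt/wt (blue) and Nterm/Nterm (orange) libraries, with the mean as a line. SOX9 lies near 2 and SOX12 below 0.6 in both genotypes.

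Genes linked here to each subgroup were counted from lists written for this work, with earlier results of these data known. The counts are therefore no independent test of the SOX changes. Each count can be set beside the share of all transcripts called, 7.25% higher and 10.6% lower in RNA and 4.36% higher and 8.91% lower in footprints. Those shares include transcripts without a name, so they are not matched to the lists for depth. Of 14 genes linked to SOXB1 in neural progenitors, 10 had a tested transcript, of which 6 fell and 1 rose in RNA, with a median log2 change of -0.39. GLI3, an effector of hedgehog signalling, fell by 0.55 (adjusted p = 0.00592), and NOTCH1, a receptor that maintains progenitors, fell by 0.55 (adjusted p = 0.00131). The 1 that rose was CDH2, the neural cadherin, by 0.15 (adjusted p = 0.0272), a call lost without wt/wt RNA library 1 or 2 or Nterm/Nterm RNA library 1 or 3. Footprints of 5 of the 10 fell and none rose, and 3 fell without wt/wt footprint library 1. Of 14 partners of SOX2 and pluripotency genes, 8 were tested and 1 fell in RNA, LIN28A, an RNA-binding protein of early development, at -0.51 (adjusted p = 0.000642), a share near the 10.6% of all transcripts called lower. This count was 3 without Nterm/Nterm RNA library 2.

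Of 14 neuronal genes linked to SOXC factors, 12 were tested, and 7 rose and 1 fell in RNA, with a median of 0.15. ISL1, a homeobox factor of motor and sensory neurons, rose by 0.33 (adjusted p = 0.00273), and DCX, a microtubule protein of migrating neurons, rose by 0.26 (adjusted p = 0.00631). NEUROD1, a proneural factor, fell by 0.70 (adjusted p = 0.00427). The count of 7 fell to 1 without wt/wt RNA library 1, to 2 without wt/wt RNA library 2 and to 3 without either Nterm/Nterm RNA library 1 or 3. In footprints 1 rose, ISL1, by 0.26 (adjusted p = 0.0202), and 1 fell. That single rise was lost without wt/wt footprint library 1 or 2 or Nterm/Nterm footprint library 3, while 5 rose without wt/wt footprint library 3, 7 with no filter on low counts, 3 with library totals alone and 2 under DESeq2 or limma-voom.

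Few genes linked to SOXD and SOXE could be followed. NR2F2, a nuclear receptor of ventral neurons, was the 1 tested of 9 genes linked to SOX5, and it fell by 0.41 in RNA (adjusted p = 0.000945). Of 16 glial and neural crest genes linked to SOXE, 3 were tested and 1 fell, ERBB3, the neuregulin receptor, at -0.27 (adjusted p = 0.0261). That call was lost in 5 of 6 fits that left out a library, and the count was 2 without Nterm/Nterm RNA library 2. Of 10 cartilage genes activated by SOX9 with SOX5 and SOX6, 3 were tested and all 3 fell in RNA and in footprints. COL9A3, a chain of cartilage collagen, was at 525, 549 and 453 RNA counts in wt/wt and at 141, 169 and 107 in Nterm/Nterm libraries, a log2 change of -1.62 (SE 0.17, adjusted p = 0.000226). COL11A1, another collagen chain, fell by 0.97 (adjusted p = 0.0102), and HAPLN1, which links hyaluronan to proteoglycans, fell by 0.70 (adjusted p = 0.000777). Of all transcripts, 10.6% were called lower in RNA and 8.91% in footprints. The fall was not particular to this list. Of 5 tested markers of mesenchymal cells outside it, 4 fell in RNA and 3 in footprints, with COL1A1 at -1.31 and FBN1 at -0.74 in RNA.

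**Figure D4:**
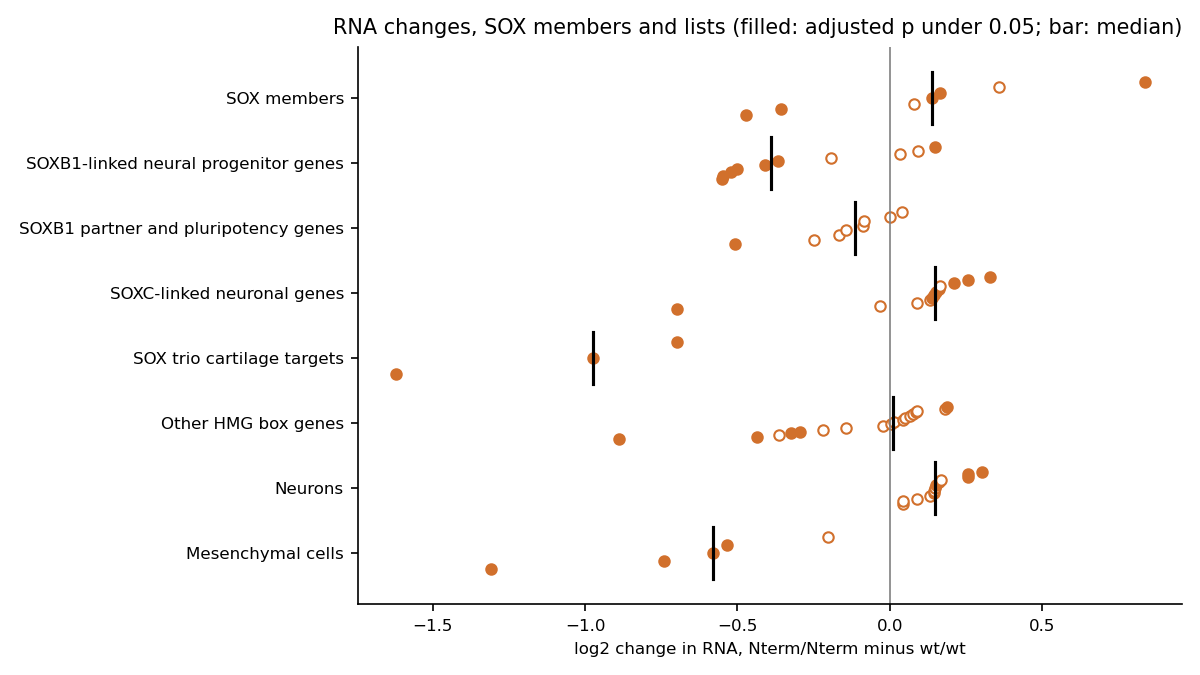
RNA log2 change (x axis, Nterm/Nterm minus wt/wt) of the SOX members and of the tested genes of 7 lists, 1 point per gene, filled where adjusted p was under 0.05, with the list's median as a bar. All 3 cartilage genes are at -0.70 or lower, and the mesenchymal markers have a median of -0.58. The SOXC-linked genes have a median of 0.15.

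Among 9 other SOX genes, SOX7, SOX13 and SOX15 had a tested transcript. SOX15, which is close to the SOXB1 genes in sequence, fell by 0.45 in RNA (SE 0.13, adjusted p = 0.0342) and by 0.53 in footprints (SE 0.12, adjusted p = 0.00577). Its RNA call was lost without wt/wt RNA library 1 or 2 or Nterm/Nterm RNA library 3, while 2 of the 3 genes were called lower without Nterm/Nterm RNA library 2. SOX7, an endothelial factor, had an RNA change of -0.19 (adjusted p = 0.123) and SOX13, a SOXD factor, one of -0.13 (adjusted p = 0.133). Of 21 further genes with an HMG box, 18 were tested, of which 4 fell and 1 rose in RNA, beside 10.6% and 7.25% of all transcripts, with a median of 0.01. HMGB2, a chromatin protein of dividing cells, fell by 0.89 (adjusted p = 0.000763), TCF7L1, a repressor of Wnt targets, fell by 0.43 (adjusted p = 0.00935) and HMGB3 rose by 0.19 (adjusted p = 0.0145). Without wt/wt RNA library 1 or 2, 1 of the 18 fell and none rose.

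Markers of some cell types moved beside these members. Their counts can be set beside all transcripts, of which 7.25% were called higher and 10.6% lower in RNA, and 4.36% and 8.91% in footprints. A single call in a short list cannot be told apart from these shares. The marker lists share genes with the lists above, so a shared call is counted in both and is no separate evidence. Every tested progenitor marker is also in the SOXB1-linked list. LIN28A, ERBB3, HMGB2, TUBB3, MAP2 and DCX, all called in RNA, recur too. A summed level mostly follows the most abundant genes of its list. These are NES and VIM for progenitors, FN1 and COL1A2 for mesenchymal cells and NGFR for neural crest. Neuronal markers, 13 of 13 tested, had 6 that rose in RNA and none that fell, and their summed level was 13615 to 14590 CPM in wt/wt and 15689 to 16990 CPM in Nterm/Nterm libraries. The count of 6 was 2 without wt/wt RNA library 1 and 3 without wt/wt RNA library 2. NEFL, a neurofilament chain, rose by 0.30 and NEFM, another, by 0.26. Of 10 neural progenitor markers, 6 were tested and 3 fell in RNA, with sums of 1193 to 1297 CPM in wt/wt and 967 to 1117 CPM in Nterm/Nterm. Among them VIM, an intermediate filament, fell by 0.41 in RNA, while its footprints changed by -0.06 (adjusted p = 0.634). In footprints 2 of the 6 progenitor markers fell, and their sums overlapped, at 1426 to 1744 CPM in wt/wt and 1447 to 1678 CPM in Nterm/Nterm.

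Of 9 pluripotency markers 5 were tested and 1, LIN28A, fell in RNA. This count was 2 without Nterm/Nterm RNA library 2. The sums were 269 to 293 CPM in wt/wt and 197 to 224.5 CPM in Nterm/Nterm. LIN28A made up most of them, with means of 212.4 CPM in wt/wt and 149.2 CPM in Nterm/Nterm. Of 11 mesenchymal markers 5 were tested and 4 fell, with RNA sums of 4056 to 5008 CPM in wt/wt and 2695 to 3558 CPM in Nterm/Nterm. Their footprint sums overlapped, at 5058 to 6283 CPM and 3796 to 5154 CPM, and 3 of the 5 fell in footprints. COL1A1, a fibrillar collagen, fell by 1.31 and FBN1, a microfibril protein, by 0.74. Of 8 proliferation markers 5 were tested and 3 fell, with sums of 199.7 to 228 CPM and 140.0 to 171 CPM, among them TYMS, an enzyme of thymidylate synthesis, by 0.52.

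Glial lists held few tested genes. Of 8 neural crest and Schwann cell markers 3 were tested and 2 fell, ERBB3 and NGFR, the neurotrophin receptor, the latter by 0.20, with sums of 458 to 489 CPM in wt/wt and 401 to 422 CPM in Nterm/Nterm. The count was 0 without wt/wt RNA library 1 and 1 without wt/wt RNA library 2 or 3 or Nterm/Nterm RNA library 1 or 3. Of 7 astrocyte markers 3 were tested and 1 fell, GJA1, a gap junction protein, by 0.59, with sums that overlapped, at 166 to 177.5 and 173 to 176 CPM. This call was lost without wt/wt RNA library 1 or 2. GJA1 footprints fell by 0.66 (edgeR quasi-likelihood adjusted p = 0.000465), and the list's footprint count stayed at 1 whichever footprint library was left out. The 1 oligodendrocyte marker tested, CNP, changed by 0.07 (adjusted p = 0.307). Markers with no named transcript are not analysed here, and no marker is read as being at 0. The part of these cell types in the SOX1, SOX2 and SOX9 changes was not tested.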

How the data were processed

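The authors deposited a table of whole-number counts per transcript, not normalised, for all 12 libraries, and a translational efficiency table that gives, per the file headers, a mean ratio of footprints to RNA with its SD per genotype, the ratio of both means and an unadjusted p-value. Per the submitters' processing notes, which give no roles or order, the tools were Salmon 1.4.0, Bowtie2 2.3.4.3, cutadapt 2.4, UMI-tools 1.0.1, limma and edgeR, with build GRCh37. The sources used here do not say how reads matching several transcripts were assigned.

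Gene names came from the efficiency table, which names 10873 transcripts and lists none with under 1016 total counts, so genes without a named transcript are mostly less covered ones. Counts were fitted per assay with edgeR 4.0.16 in R 4.3.3 (TMM, filterByExpr, quasi-likelihood F test, Benjamini-Hochberg, threshold 0.05), and efficiency as an interaction over all libraries with TMM within assay. CPM are counts over TMM-scaled library totals. The fits were also run on simulated counts with known changes, but the outcome is not given here and no result rests on it. Alternatives were DESeq2 1.42.0, limma-voom (limma 3.58.1), RLE, library totals alone, no filter, a replicate block, leaving out each library and grouping by the genotype tag. All SOX members were named, and of each list at most the 2 largest called changes in each direction, with a few more named after their values were seen. Members and lists were chosen with earlier results of these data known. Promoters came from RefSeq (GRCh38.p14), where 5 of 7 members matched.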

Additional observations from a re-analysis of the deposited data

How the results depend on the processing

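Over fits that each left out a library, 3 to 6 members were called in RNA, 1 to 4 in footprints and 0 in efficiency, with 841 to 2851, 954 to 2045 and 2 to 4 transcripts called. SOX1 RNA stayed called in 6 of 6 such fits (log2 0.77 to 0.90), as did SOX2 (-0.42 to -0.32) and SOX9 (-0.55 to -0.42). With a replicate block, 4504 transcripts were called in RNA against 2624, 20 in efficiency against 3, and 7 members in RNA, 4 in footprints and 0 in efficiency; SOX4 and SOX5 RNA were then called as higher (adjusted p = 0.0159 and 0.00973), and 3 of 3 other SOX genes as lower. Same-numbered libraries of the 2 genotypes correlated at 0.09 to 0.10 in RNA and 0.04 to 0.22 in footprints, so the main fits did not take the numbers as pairs. Each RNA library nonetheless correlated best with its own number in the other genotype (-0.08 to -0.02 with the others). Footprint libraries of different number correlated at -0.15 to 0.06 between genotypes. Within a genotype, RNA and footprint libraries of the same number correlated at 0.04 to 0.33, and those of different number at -0.25 to 0.04. Whether the numbers mark pairs is thus not settled. With the block, the edgeR adjusted p was 0.000174 for SOX11 RNA and 0.000398 for SOX12 RNA. DESeq2 called 27 transcripts in efficiency and gave no count over the members, since 5 of 7 had no adjusted p.

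Grouping footprints by the genotype tag reverses that contrast by construction. Footprint changes then were -0.67 for SOX1, 0.28 for SOX2, -0.19 for SOX4, -0.21 for SOX11, -0.29 for SOX12, -0.10 for SOX5 and 0.30 for SOX9, and efficiency changes were -1.51 for SOX1, 0.64 for SOX2, -0.27 for SOX4, -0.35 for SOX11, -0.46 for SOX12, -0.46 for SOX5 and 0.77 for SOX9. All 7 members and 4150 transcripts were then called in efficiency. No scaling moved the median of all transcripts by over 0.1 (log2). Depth limits SOX1, SOX2 and SOX5 most, at 163 to 637 counts per library.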
